A study of Homo sapiens with 12 samples.

Results

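The genes described here are 9 non-ribosomal protein genes whose mRNAs are known to start with a terminal oligopyrimidine (TOP) motif, EEF1A1, EEF1B2, EEF1D, EEF1G, EEF2, TPT1, PABPC1, NACA and BTF3, together with the non-coding snoRNA host gene GAS5. They were taken by name, which gave 10 of the 60658 features in the deposited expression table, and all 10 passed the filter on low values that left 13393 genes for testing. The table holds 12 RNA-seq libraries of poly(A) RNA from K-562 cells, a human erythroleukemia line, in 4 groups of 3, with RNA taken 24 h after siRNA transfection. D152V_Rescue was a G418-selected stable line carrying the 3xTY-D152V construct, a MYB variant with a substitution in the DNA-binding domain, and it was transfected with the MYB siRNA si2992. MYB-WT_Rescue was a stable line carrying 3xTY-hcM, the wild-type construct, with the same siRNA. MYB_KnockDown was the stable line with the 3xTY1 tag alone and si2992, and siRNA_Control was that tag line with a siGENOME non-targeting siRNA. Each rescue is a separate stable line, so what the line itself adds cannot be told apart from what its MYB construct adds, and the sources used here do not say whether the lines were clonal.

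A TOP mRNA starts with a cytidine followed by an unbroken run of pyrimidines. The class covers most ribosomal protein mRNAs and many mRNAs for translation factors, and the protein LARP1 and the mTORC1 kinase complex control how strongly these mRNAs are translated and how stable they are. EEF1A1 encodes the factor that brings aminoacyl-tRNA to the ribosome, and EEF1B2, EEF1D and EEF1G are the subunits of the complex that recharges it with GTP. EEF2 moves the ribosome along the mRNA, PABPC1 binds poly(A) tails, NACA and BTF3 form the nascent polypeptide-associated complex at the ribosome exit tunnel, and TPT1 is the translationally controlled tumour protein. GAS5 has the same kind of start but no long reading frame, carries box C/D snoRNAs in its introns, and its spliced RNA is removed by nonsense-mediated decay (NMD) when it is translated.

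The starts of 8 of these genes are shown because the motif there is what places them together. Each line gives a stretch of at most 30 bases of the sense strand, 5′ to 3′, from the RefSeq promoter windows on GRCh38.p14, with a tract of C and at least 4 further pyrimidines in capitals. For EEF1A1, EEF1B2, EEF2, TPT1, NACA and BTF3 the first capital is the annotated start base, and for EEF1G and GAS5 the tract lies 26 and 31 bases after it.
EEF1A1: tgaacgttCTTTTTCgcaacgggtttgccg
EEF1B2: cttcgggtCCTTTTTCCTCTCTTCagcgtg
EEF1G: gaaccccaCCCCCTTTCTTTgcggaatcac
EEF2: tcagcgttCTCTTCCgccgtcgtcgccgcc
TPT1: gagtcggcCTTTTCCgcccgctcccccctc
NACA: cgctcggtCTTTCTgccgccatcttggttc
BTF3: tccggcctCCCTTTagctgccatcttgcgt
GAS5: caccagcgCCTTTTTTgtttgctcttt
The stretches lie at chr6:73521011-73521040 (minus strand) for EEF1A1, chr2:206159887-206159916 (plus) for EEF1B2, chr11:62573844-62573873 (minus) for EEF1G and chr19:3985442-3985471 (minus) for EEF2. Those of TPT1, NACA, BTF3 and GAS5 lie at chr13:45341162-45341191 (minus), chr12:56725278-56725307 (minus), chr5:73498434-73498463 (plus) and chr1:173868996-173869022 (minus). EEF1B2 has a second annotated start further upstream, so these 8 genes have 9 windows. EEF1D and PABPC1 are named only.

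A tract beginning exactly at the annotated start was found in 6 of the 9 windows, 66.7%. The same was found in 47 of 78 windows of ribosomal protein genes, 60.3%, and in 4.07% of all 35116 windows in the table. The 78 windows cover 63 of the 79 ribosomal protein genes compared below. Allowing the tract to begin anywhere in the first 45 bases took in 9 of 9 windows of the 8 genes shown. It took in 87.2% of the ribosomal protein windows and 51% of all windows. The letters AACGG, a form of the MYB recognition element, were searched on both strands over the 300 bases from 250 before to 50 after the start. They were present in 5 of the 9 windows, against 21.8% of ribosomal protein windows and 19.7% of all windows. The looser form AACNG, which contains AACGG, was in 8 of the 9, against 78.2% and 77.2%. These are letter matches and say nothing of whether MYB was bound.

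Levels are in FPKM, a unit that divides the fragments of a gene by its transcript length and by the library's mapped fragments, so that each value depends on what else a library contains. The sum over all features lay between 672616 and 798362 in 11 libraries and was 1215578 in MYB_KnockDown replicate 1. That library also correlated at 0.929 and 0.930 with the other MYB_KnockDown libraries, whereas all other within-group correlations were at least 0.983. Its genes differed from the control mean by transcript length, with a median log2 difference of 0.74 in the 25% of genes with the shortest transcripts and −0.51 in the 25% with the longest, against 0.09 and −0.15 in replicate 2 and 0.11 and −0.12 in replicate 3. The series describes the 3 replicates of a group as individual experiments, and p-values measure the spread between these samples. Values are over 12 libraries unless the 11 without MYB_KnockDown replicate 1 are named. The targeted gene MYB averaged 91.1 ± 8.11 FPKM in D152V_Rescue, 124 ± 8.87 in MYB-WT_Rescue, 30.2 ± 3.58 in MYB_KnockDown and 120.1 ± 14.2 in siRNA_Control (SD, n = 3 each), and the introduced and endogenous transcripts are not separated. All 9 K-562 markers looked up averaged at least 1 FPKM in every group, and they summed to 2164 to 3723 FPKM per library in D152V_Rescue, 948 to 1982 in MYB-WT_Rescue, 1749 to 5846 in MYB_KnockDown and 1344 to 2839 in siRNA_Control, without overlap between the rescues. The sums hide single markers that went opposite ways. Log2 differences of single K-562 markers from the control mean ran from −2.44 to 2.24 in D152V_Rescue and from −1.80 to 3.42 in MYB_KnockDown. They ran from −4.23 to 1.11 in MYB-WT_Rescue, where the lowest marker stood at −4.10, −4.23 and −3.49 in replicates 1, 2 and 3. The 6 monocyte or granulocyte markers summed to 3.90 to 5.41 FPKM in D152V_Rescue, below every library of the other groups, 10.9 to 14.1 in MYB-WT_Rescue, 8.46 to 27.9 in MYB_KnockDown and 15.95 to 24.6 in siRNA_Control, with ELANE at 0 in every group. The 4 lymphoid markers summed to at most 3.53 FPKM, with MS4A1 at 0. The 6 fibroblast or epithelial markers summed to 33.2 to 39.1 FPKM in D152V_Rescue, 53.8 to 76.4 in MYB-WT_Rescue, 46.3 to 129.6 in MYB_KnockDown and 60.4 to 61.6 in siRNA_Control. Their part in the results was not tested.

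The control levels spanned a wide range. EEF1A1 was the most abundant at 4256 ± 268 FPKM in siRNA_Control, followed by PABPC1 at 2280.2 ± 197 FPKM and EEF1G at 1338 ± 68.2 FPKM. EEF2 stood at 1105 ± 58.4 FPKM and BTF3 at 1040.3 ± 43.7 FPKM, which overlap within their spread. TPT1 (725 ± 52.3 FPKM), NACA (673 ± 47.0 FPKM) and EEF1B2 (609.5 ± 57.0 FPKM) overlapped with each other. GAS5 at 393 ± 14.6 FPKM and EEF1D at 179.9 ± 5.91 FPKM were the lowest. The 10 genes together held between 1.49% and 1.92% of the FPKM total of a library. Beside them, ribosomal protein genes held 11.1% to 12.6% in D152V_Rescue, 10.3% to 11.4% in MYB-WT_Rescue, 16.2% to 23.6% in MYB_KnockDown and 12.2% to 14.4% in siRNA_Control.

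**Figure D1:**
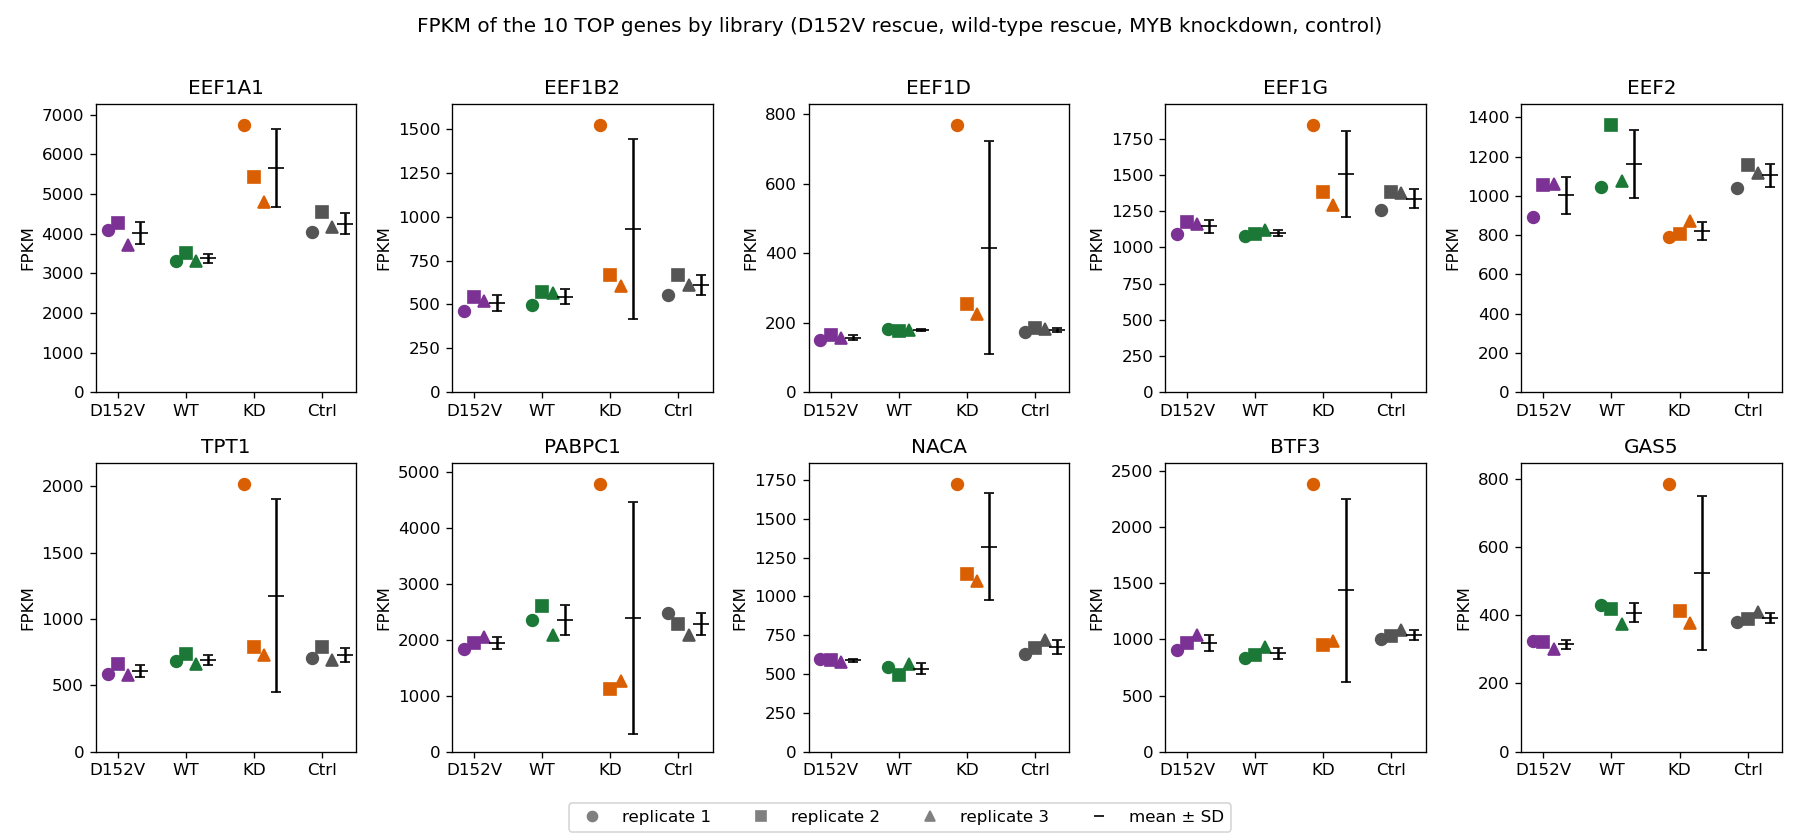
FPKM of each of the 10 genes in every library, one panel per gene, with the 4 groups along the x axis, 1 point per library, and the group mean ± SD (n = 3) as a horizontal tick with a vertical bar. MYB_KnockDown replicate 1 is the highest point for 9 genes and the lowest for EEF2, at 788 FPKM.

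When MYB was silenced, these genes did not move as a block. Over 12 libraries NACA rose and the other 9 did not pass, with differences below 0 for EEF2 and PABPC1 and above 0 for the rest. Without MYB_KnockDown replicate 1, NACA and EEF1D rose and EEF2 and PABPC1 fell, while the 6 others did not pass. Of 79 ribosomal protein genes, some rose and none fell in the same libraries. In bulk RNA, fewer cells of a type and less RNA per cell cannot be told apart, which applies to each difference given here.

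NACA, the alpha subunit of the nascent polypeptide-associated complex, had 1723, 1142 and 1101 FPKM in MYB_KnockDown and 628, 669.7 and 722 FPKM in siRNA_Control. Every MYB_KnockDown library was above every control library, and replicates 2 and 3 stood at 169.7% and 163.5% of the control mean. The log2 difference was 0.94 (SE 0.17, adjusted p = 0.0106, limma with Benjamini-Hochberg adjustment over 13393 genes). Without replicate 1 it was 0.74 (SE 0.08, limma adjusted p = 0.000427). The call was lost without siRNA_Control replicate 1 or 2, with limma adjusted p = 0.0621 and 0.0537.

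BTF3, the partner of NACA in that complex, had 2384, 953 and 984 FPKM in MYB_KnockDown and 1002, 1031 and 1088 FPKM in siRNA_Control. Replicate 1 was far above the controls and replicates 2 and 3 were below all of them, at 91.7% and 94.6% of the control mean. The log2 difference of 0.33 (SE 0.29, limma adjusted p = 0.436) became −0.10 without replicate 1.

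EEF1D, the delta subunit of the exchange complex, had 769, 254 and 226 FPKM in MYB_KnockDown and 174, 185 and 181 FPKM in siRNA_Control. The groups did not overlap, but replicate 1 was 427.5% of the control mean while replicates 2 and 3 were 141% and 125.4%. Over 12 libraries the log2 difference was 0.97 (SE 0.35) and did not pass (limma adjusted p = 0.0873). It passed when any MYB_KnockDown library was left out, at 0.41 (SE 0.07, limma adjusted p = 0.00359) without replicate 1, 1.21 (limma adjusted p = 0.0453) without replicate 2 and 1.29 (limma adjusted p = 0.0310) without replicate 3.

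The beta subunit gene EEF1B2 had 1522, 666 and 606 FPKM in MYB_KnockDown and 551, 665 and 612 FPKM in siRNA_Control. The gamma subunit gene EEF1G had 1846, 1386 and 1290.1 FPKM in MYB_KnockDown and 1259, 1382 and 1373 FPKM in siRNA_Control. In both genes replicate 1 was the only MYB_KnockDown library clearly above the controls, and the rest lay within or near the control range. The log2 differences were 0.48 for EEF1B2 (SE 0.28, limma adjusted p = 0.252) and 0.16 for EEF1G (SE 0.16, limma adjusted p = 0.504), and without replicate 1 they were 0.064 (SE 0.11) and 0.00014 (SE 0.08). The 3 subunits of 1 complex thus had different values in MYB_KnockDown replicates 2 and 3, with EEF1D at 141% and 125.4% of its control mean, EEF1B2 at 109.3% and 99.4%, and EEF1G at 103.5% and 96.4%.

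EEF1A1, which carries aminoacyl-tRNA, had 6745, 5440.2 and 4803 FPKM in MYB_KnockDown and 4035, 4554 and 4179 FPKM in siRNA_Control. All 3 MYB_KnockDown libraries were above all 3 controls, the nearest values being 4803 and 4554 FPKM. The log2 difference was 0.40 (SE 0.19, limma adjusted p = 0.162) and 0.27 without replicate 1 (limma adjusted p = 0.0867), so it did not pass in either set. Its 49 pseudogene entries, found by symbol, summed to 7.91 to 54.3 FPKM per library. How reads shared between EEF1A1 and these copies were assigned was not tested.

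EEF2, the translocation factor, went the other way. It had 788, 806 and 873 FPKM in MYB_KnockDown and 1041, 1156 and 1117 FPKM in siRNA_Control, with no overlap. The libraries stood at 71.4%, 73.0% and 79.03% of the control mean, so replicate 1 did not stand apart for this gene. The log2 difference was −0.43 (SE 0.15, limma adjusted p = 0.0824) over 12 libraries and −0.40 (SE 0.12, limma adjusted p = 0.0412) over 11.

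PABPC1, the poly(A)-binding protein, had the largest standard error of the 10 genes. It had 4775, 1122 and 1258 FPKM in MYB_KnockDown and 2482, 2271 and 2088 FPKM in siRNA_Control. Replicate 1 was above all controls at 209.4% of their mean, and replicates 2 and 3 were below all of them at 49.2% and 55.2%. Over 12 libraries the log2 difference was −0.27 (SE 0.43, limma adjusted p = 0.684), and it took the values 0.11 without replicate 2 and 0.03 without replicate 3. Without replicate 1 it was −0.94 (SE 0.11, limma adjusted p = 0.000707), the lowest among the 10 genes.

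TPT1 had 2014, 789 and 725 FPKM in MYB_KnockDown and 703, 785 and 688 FPKM in siRNA_Control. GAS5 had 784, 411 and 377 FPKM in MYB_KnockDown and 381, 389 and 409.6 FPKM in siRNA_Control. For each, replicate 1 was at 277.7% and 199.5% of the control mean, and replicates 2 and 3 lay between 95.9% and 108.7%. The log2 differences of 0.53 for TPT1 (SE 0.31, limma adjusted p = 0.246) and 0.33 for GAS5 (SE 0.23, limma adjusted p = 0.319) did not pass, and without replicate 1 they were 0.063 (SE 0.09) and 0.0030 (SE 0.08). Features named for 11 of 14 snoRNAs looked up, 54 in all, were listed at 0 in every library, so only the host RNA is described.

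In this comparison 1 of the 10 genes passed, against 11.3% of all tested genes, and without replicate 1 it was 4 of 10 against 20.1%. Among 79 ribosomal protein genes, 27 rose and none fell over 12 libraries, and 49 rose over 11. Without siRNA_Control replicate 1, 2 or 3 it was 1, 2 and 5, without any 1 of the rescue libraries 11 to 16, and with only the 6 compared libraries 0. The median log2 difference of the 10 genes was 0.37, against 0.84 for the ribosomal protein genes and −0.03 for all tested genes. Without replicate 1 these medians were 0.03 for the 10 genes and 0.42 for the ribosomal protein genes. By library, 9, 7 and 4 of the 10 genes lay above the control mean in MYB_KnockDown replicates 1, 2 and 3, with medians of 1.13, 0.09 and −0.03. Under quantile normalization EEF1D, EEF2 and PABPC1 passed and NACA did not, and the differences of EEF1B2, EEF1G, TPT1, BTF3 and GAS5 turned below 0. Fitted on the 6 compared libraries alone, where 4 of all tested genes rose and 12 fell, none of the 10 passed by limma. There 1, NACA, had an unadjusted p under 0.05 by limma, with no share of all tested genes given at that threshold.

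**Figure D2:**
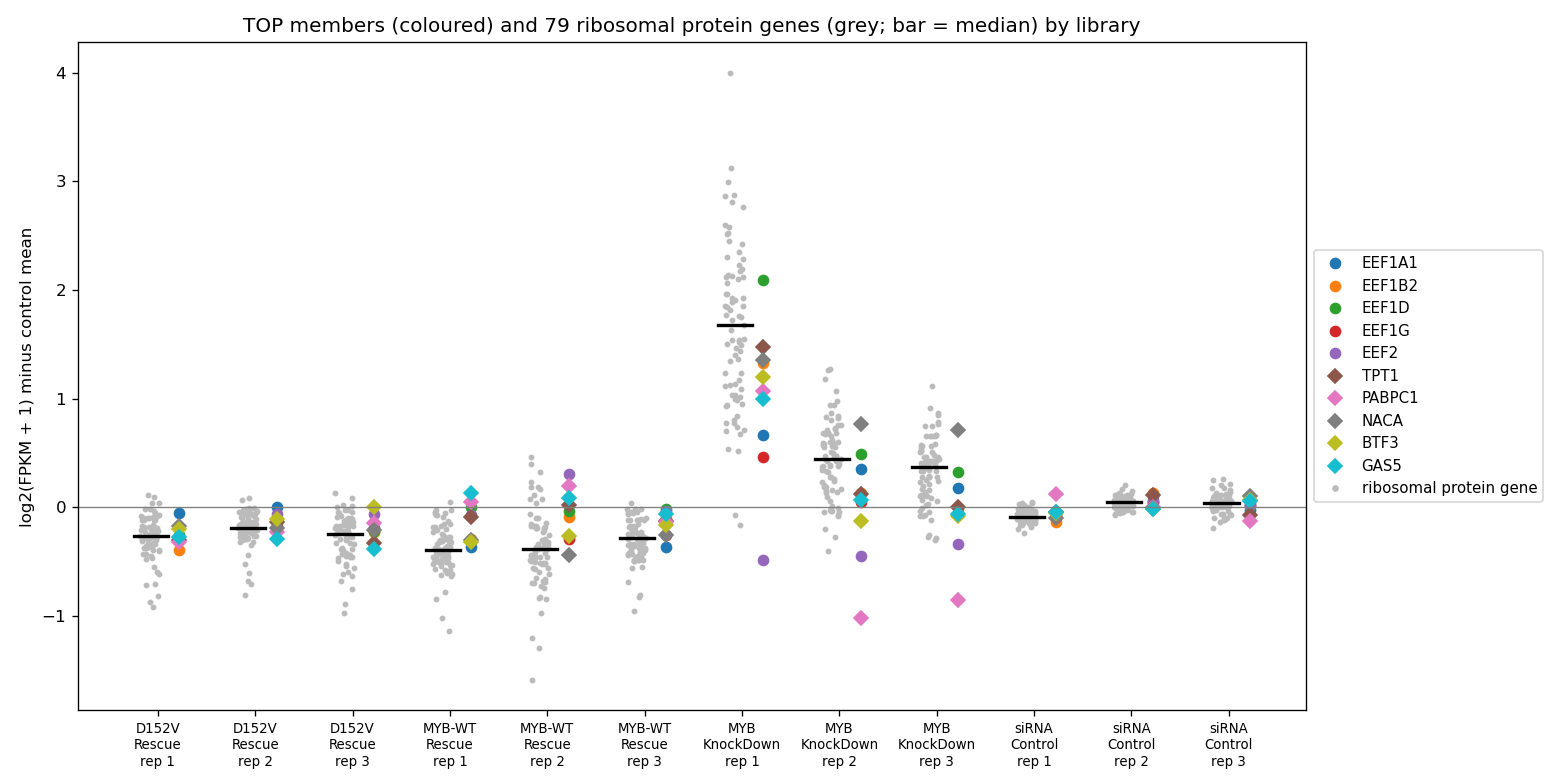
Difference of each of the 10 genes and of the 79 ribosomal protein genes from the siRNA_Control mean, as log2(FPKM + 1), in every library. In MYB_KnockDown replicates 2 and 3 the medians of the 10 genes are 0.09 and −0.03 and those of the ribosomal protein genes (bars) 0.45 and 0.37, with NACA the highest and PABPC1 the lowest of the 10 genes.

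The difference of each gene from the ribosomal protein genes was then tested directly, by subtracting from each library the mean log2(FPKM + 1) of its 79 ribosomal protein genes and fitting all genes again. On that scale 6 of the 10 genes were lower in MYB_KnockDown than in siRNA_Control, in a fit where 48% of all tested genes passed and 47.7% were lower. A lower value here is thus the common case, and the median was −0.45 for the 10 genes and −0.84 for all tested genes. The 6 were PABPC1 (−1.08, SE 0.20), EEF2 (−1.24, SE 0.29), EEF1G (−0.66, SE 0.18), BTF3 (−0.48, SE 0.10), GAS5 (−0.48, SE 0.13) and EEF1B2 (−0.33, SE 0.11), with limma adjusted p between 0.0102 and 0.0356. TPT1 (−0.28, limma adjusted p = 0.0566) and EEF1A1 (−0.41, limma adjusted p = 0.0794) did not pass. EEF1D (0.16, limma adjusted p = 0.326) and NACA (0.13, limma adjusted p = 0.475) had values above 0 that did not pass either.

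Some of these relative values were close from library to library. BTF3 lay at −0.46, −0.57 and −0.42 relative to the ribosomal protein mean in MYB_KnockDown replicates 1, 2 and 3, each as a difference from the control mean on the log2 scale. EEF1B2 lay at −0.33, −0.31 and −0.35. In both genes replicate 1 did not stand apart on this scale, although it had the highest FPKM by far. EEF2 (−2.14, −0.89, −0.68) and EEF1G (−1.19, −0.39, −0.39) were lowest in replicate 1, and EEF1A1 (−0.99, −0.09, −0.17) was far from its control mean on this scale in replicate 1 alone. NACA lay at −0.30, 0.32 and 0.37.

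Without MYB_KnockDown replicate 1, NACA rose by 0.35 more than the ribosomal protein mean from siRNA_Control to MYB_KnockDown (SE 0.08, limma adjusted p = 0.00296). This was in a fit where 1.12% of tested genes were higher. In the same fit 7 of the genes were lower, PABPC1, EEF2, BTF3, EEF1G, GAS5, TPT1 and EEF1B2, against 55.8% of tested genes. Their values were between −1.33 for PABPC1 (limma adjusted p = 5.70e-05) and −0.33 for EEF1B2 (limma adjusted p = 0.00834), with a median of −0.36 over the 10 genes and −0.43 over all tested genes. EEF1D (0.02) and EEF1A1 (−0.13) did not pass. In the 12-library fit, leaving out a single control library ended several calls. Without siRNA_Control replicate 1 the call of PABPC1 was lost (limma adjusted p = 0.0689), those of EEF1G, EEF2 and GAS5 were lost without each control library in turn (limma adjusted p from 0.0510 to 0.0860), and that of BTF3 without replicate 1 or 2 (limma adjusted p from 0.0537 to 0.0746). EEF1B2 lost its call without any of the control libraries or D152V_Rescue replicate 2 (limma adjusted p from 0.0534 to 0.105). Ordered by the change itself, EEF2 and PABPC1 lay below all 79 ribosomal protein genes over 12 libraries, while 27 ribosomal protein genes lay above NACA and 25 above EEF1D.

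**Figure D3:**
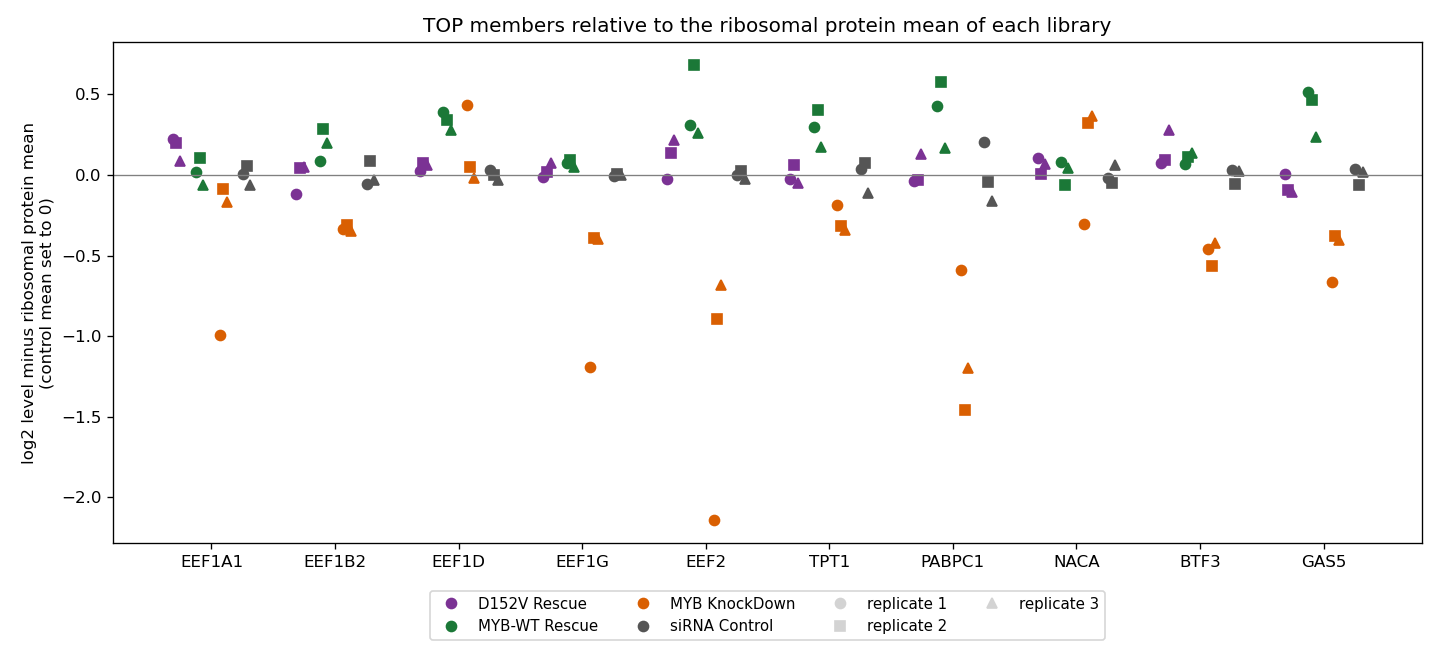
Log2(FPKM + 1) of each of the 10 genes minus the mean of the 79 ribosomal protein genes of the same library, with the siRNA_Control mean set to 0, 1 point per library coloured by group and shaped by replicate. MYB_KnockDown replicate 1 is the lowest point of EEF2, at −2.14, and the MYB_KnockDown points of EEF1B2 lie close together at −0.33, −0.31 and −0.35.

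The rescue lines were compared with MYB_KnockDown, the cells that received the same siRNA without a MYB construct. These comparisons share the MYB_KnockDown libraries with the one above, so their values are not independent of it. In MYB-WT_Rescue, EEF2 was higher and NACA, EEF1A1, EEF1D and EEF1G were lower. In D152V_Rescue, NACA and EEF1D were lower. The other genes did not pass over 12 libraries.

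In MYB-WT_Rescue EEF2 had 1047, 1362 and 1075 FPKM, against 788, 806 and 873 FPKM in MYB_KnockDown. The groups did not overlap, and the log2 difference was 0.49 (SE 0.15, limma adjusted p = 0.0250) over 12 libraries and 0.46 (limma adjusted p = 0.0100) over 11. Without MYB-WT_Rescue replicate 2 the call was lost (limma adjusted p = 0.105). In D152V_Rescue EEF2 had 893, 1056 and 1059 FPKM, above every MYB_KnockDown library, but its difference of 0.28 (SE 0.15, limma adjusted p = 0.174) did not pass.

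NACA had 596, 588 and 579.6 FPKM in D152V_Rescue, 544, 494 and 562.03 FPKM in MYB-WT_Rescue and 1723, 1142 and 1101 FPKM in MYB_KnockDown. Both rescue lines lay below all MYB_KnockDown libraries. The log2 difference from MYB_KnockDown was −1.14 (SE 0.17, limma adjusted p = 0.00143) in D152V_Rescue and −1.28 (SE 0.17, limma adjusted p = 0.000397) in MYB-WT_Rescue, and over 11 libraries −0.93 (limma adjusted p = 3.31e-05) and −1.07 (limma adjusted p = 7.41e-06). Neither call was lost when any single library was left out, but with only the 6 compared libraries that in D152V_Rescue was (limma adjusted p = 0.0526).

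EEF1A1 had 4085, 4258 and 3716 FPKM in D152V_Rescue, 3304, 3517 and 3305 FPKM in MYB-WT_Rescue and 6745, 5440.2 and 4803 FPKM in MYB_KnockDown. Neither rescue group overlapped with MYB_KnockDown, and the D152V_Rescue libraries were all above the MYB-WT_Rescue libraries. The log2 difference from MYB_KnockDown was −0.73 in MYB-WT_Rescue (SE 0.19, limma adjusted p = 0.0109) and passed over 11 libraries too (−0.60, limma adjusted p = 0.000749). It did not pass under quantile normalization (−0.29, limma adjusted p = 0.314). In D152V_Rescue it was −0.48 (SE 0.19, limma adjusted p = 0.0765), and it passed without MYB_KnockDown replicate 1 (−0.35, limma adjusted p = 0.0219) or replicate 3 (limma adjusted p = 0.0453).

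EEF1D had 150.4, 165 and 155 FPKM in D152V_Rescue, 181, 175 and 178 FPKM in MYB-WT_Rescue and 769, 254 and 226 FPKM in MYB_KnockDown. Both rescue groups lay below MYB_KnockDown without overlap. The difference was −1.17 in D152V_Rescue (SE 0.35, limma adjusted p = 0.0325) and −0.99 in MYB-WT_Rescue (SE 0.35, limma adjusted p = 0.0442). Over 11 libraries it was −0.61 (limma adjusted p = 0.000201) and −0.43 (limma adjusted p = 0.000807). The call in D152V_Rescue was lost without any 1 of the D152V_Rescue libraries (limma adjusted p from 0.0781 to 0.0876), and that in MYB-WT_Rescue without any 1 of the 9 libraries outside MYB_KnockDown (limma adjusted p from 0.0597 to 0.106).

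EEF1G had 1095, 1179 and 1161 FPKM in D152V_Rescue, 1078, 1095 and 1123 FPKM in MYB-WT_Rescue and 1846, 1386 and 1290.1 FPKM in MYB_KnockDown. The difference of −0.44 in MYB-WT_Rescue (SE 0.16, limma adjusted p = 0.0458) was lost without any 1 of the 9 libraries outside MYB_KnockDown (limma adjusted p from 0.0654 to 0.113) and with replicate number as a block (limma adjusted p = 0.0593), and quantile normalization turned it to 0.29. Over 11 libraries it was −0.28 (limma adjusted p = 0.0113). In D152V_Rescue it was −0.38 (limma adjusted p = 0.0937), passing without MYB_KnockDown replicate 1 (−0.22, limma adjusted p = 0.0440) or replicate 3 (limma adjusted p = 0.0480).

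PABPC1 had 1827, 1943 and 2051 FPKM in D152V_Rescue, 2347, 2609 and 2076 FPKM in MYB-WT_Rescue and 4775, 1122 and 1258 FPKM in MYB_KnockDown. Both rescue groups lay between MYB_KnockDown replicate 1 and the other MYB_KnockDown libraries. Over 12 libraries the log2 difference was 0.04 in D152V_Rescue (limma adjusted p = 0.955) and 0.30 in MYB-WT_Rescue (limma adjusted p = 0.593). Without MYB_KnockDown replicate 1 both passed, at 0.71 in D152V_Rescue (limma adjusted p = 0.00113) and 0.97 in MYB-WT_Rescue (limma adjusted p = 8.45e-05).

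EEF1B2 had 461, 545 and 518 FPKM in D152V_Rescue and 495, 569.7 and 568 FPKM in MYB-WT_Rescue, and TPT1 had 586, 659.9 and 576 FPKM in D152V_Rescue and 682, 736 and 663 FPKM in MYB-WT_Rescue. BTF3 had 902, 967 and 1039.9 FPKM in D152V_Rescue and 835, 865 and 930.2 FPKM in MYB-WT_Rescue. None of these 3 genes passed against MYB_KnockDown over 12 libraries in either rescue, with limma adjusted p between 0.0726 and 0.272. In D152V_Rescue, EEF1B2 (−0.33, limma adjusted p = 0.0356) and TPT1 (−0.32, limma adjusted p = 0.0209) were lower over the 11 libraries without MYB_KnockDown replicate 1. The calls of EEF1B2 and TPT1 in D152V_Rescue were also made without MYB_KnockDown replicate 2 or 3, with limma adjusted p of at most 0.0431. In MYB-WT_Rescue, EEF1B2 and TPT1 passed without MYB_KnockDown replicate 3 (limma adjusted p = 0.0281 and 0.0434) and BTF3 without replicate 2 (limma adjusted p = 0.0480). GAS5, whose values are given with the comparison of the rescues, differed from MYB_KnockDown by −0.65 in D152V_Rescue (SE 0.23, limma adjusted p = 0.0549) and by −0.28 in MYB-WT_Rescue (SE 0.23, limma adjusted p = 0.341). Without MYB_KnockDown replicate 1 it passed in D152V_Rescue at −0.32 (limma adjusted p = 0.0111), and it stood at 0.05 in MYB-WT_Rescue.

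Against MYB_KnockDown, 2 of the 10 genes passed in D152V_Rescue, where 25.1% of all tested genes did, and 5 of 10 passed in MYB-WT_Rescue, where 37.6% did. Over 11 libraries it was 8 of 10 in D152V_Rescue against 32.4%, and 6 of 10 in MYB-WT_Rescue against 45.2%. Ribosomal protein genes were lower for 55 of 79 in D152V_Rescue and 57 of 79 in MYB-WT_Rescue, with none higher, and their medians were −1.03 and −1.23. Over 11 libraries 63 were lower in D152V_Rescue, and 64 were lower and 1 higher in MYB-WT_Rescue, with medians of −0.63 and −0.82. The medians of the 10 genes were −0.57 in D152V_Rescue and −0.59 in MYB-WT_Rescue, against 0.02 and 0.03 for all tested genes, and over 11 libraries they were −0.32 and −0.19. With no filter the calls of EEF1D in both rescues and of EEF1A1, EEF1G and EEF2 in MYB-WT_Rescue were lost (limma adjusted p from 0.0603 to 0.113). With only the 6 compared libraries the same 5 calls were lost (limma adjusted p from 0.154 to 0.240).

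Relative to the ribosomal protein mean, 8 of the 10 genes were higher in D152V_Rescue than in MYB_KnockDown, in a fit where 76.3% of all tested genes passed, and 7 of 10 in MYB-WT_Rescue, where 78.3% did. Over 11 libraries 9 of 10 passed in each, against 78% and 80.3%. PABPC1 was higher by 1.10 in D152V_Rescue (limma adjusted p = 0.00222) and by 1.47 in MYB-WT_Rescue (limma adjusted p = 0.000276), and EEF2 by 1.35 (limma adjusted p = 0.00416) and 1.66 (limma adjusted p = 0.000951). NACA did not pass in either rescue over 12 libraries, at −0.07 in D152V_Rescue and −0.11 in MYB-WT_Rescue. Over 11 libraries NACA fell by more than the ribosomal protein mean in both, with relative values of −0.29 in D152V_Rescue (limma adjusted p = 0.00523) and −0.33 in MYB-WT_Rescue (limma adjusted p = 0.00207). The relative call of TPT1 in D152V_Rescue (0.28, limma adjusted p = 0.0431) was lost in 9 of the 12 fits without 1 library (limma adjusted p from 0.0533 to 0.126) and held without MYB_KnockDown replicate 1 (0.33, limma adjusted p = 0.00611). In the same comparison EEF1B2 lost its call without D152V_Rescue replicate 2 or 3 (limma adjusted p from 0.0697 to 0.0716) and GAS5 without D152V_Rescue replicate 1 (limma adjusted p = 0.0501).

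**Figure D4:**
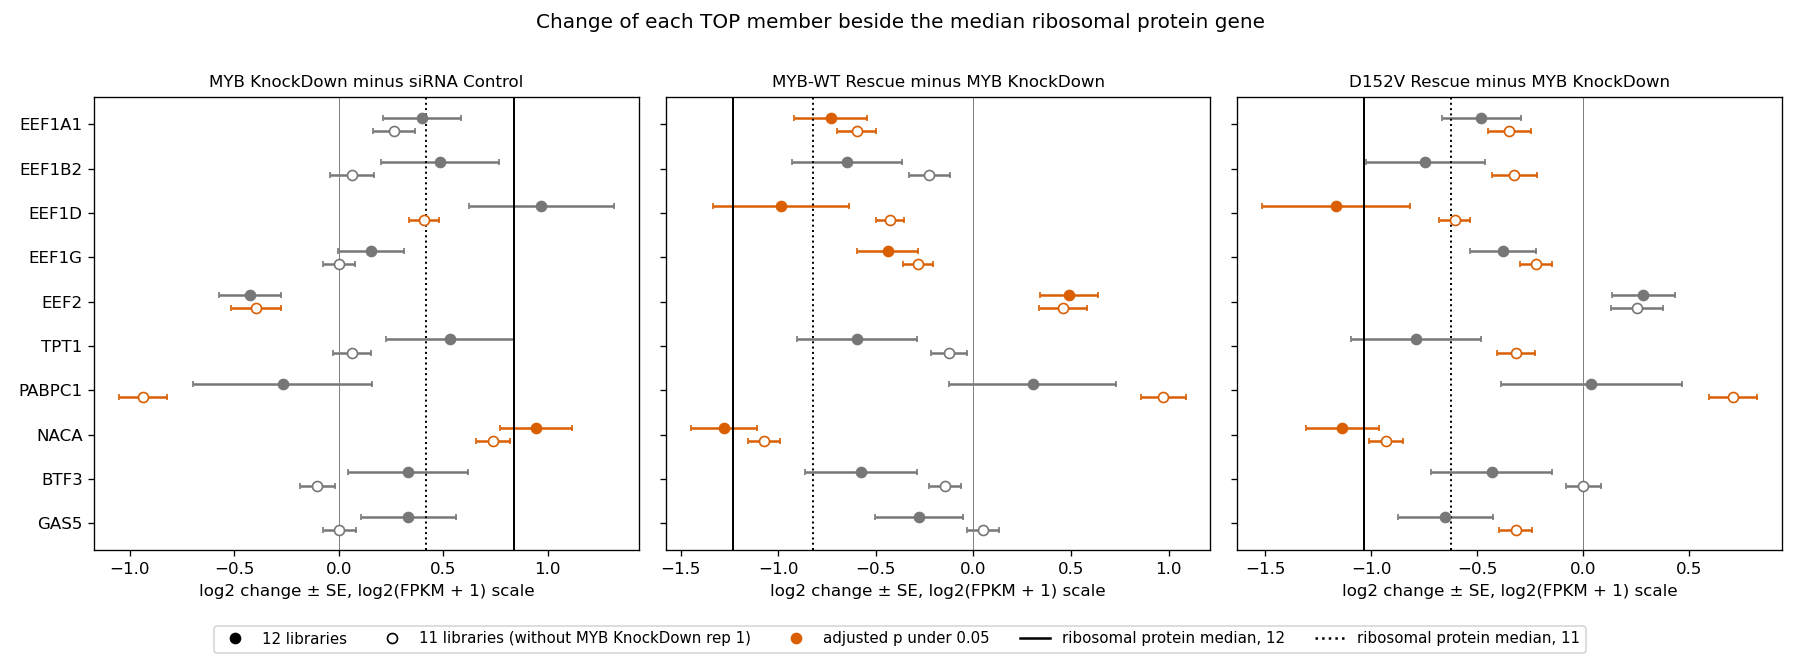
Log2 difference with standard error for each of the 10 genes in the comparisons of MYB_KnockDown with siRNA_Control and of each rescue with MYB_KnockDown, over 12 libraries (filled points) and over the 11 without MYB_KnockDown replicate 1 (open points), with a limma adjusted p under 0.05 in orange and the ribosomal protein medians as vertical lines. PABPC1 moves most between the sets, with −0.27 and −0.94 in MYB_KnockDown minus siRNA_Control.

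The comparison of D152V_Rescue with MYB-WT_Rescue sets the rescue lines side by side, and in it line and construct cannot be told apart. The MYB level differed as well, at 91.1 ± 8.11 FPKM in D152V_Rescue and 124 ± 8.87 FPKM in MYB-WT_Rescue, without overlap. Its part in the differences was not tested. GAS5 had 325, 321 and 300.2 FPKM in D152V_Rescue and 430.5, 418 and 376 FPKM in MYB-WT_Rescue, so the groups did not overlap. Means were 315 ± 13.3 FPKM in D152V_Rescue, 408 ± 28.7 FPKM in MYB-WT_Rescue, 524 ± 226 FPKM in MYB_KnockDown and 393 ± 14.6 FPKM in siRNA_Control (SD, n = 3 each). D152V_Rescue had the lowest GAS5 libraries of the study. Lower values there were not particular to GAS5. The 16 other snoRNA host transcripts had median log2 differences from the control mean of −0.30, −0.26 and −0.25 in D152V_Rescue replicates 1, 2 and 3. In MYB-WT_Rescue these medians were −0.06, −0.15 and −0.10. Above the control mean lay 2, 2 and 2 of the 16 in D152V_Rescue and 8, 5 and 4 in MYB-WT_Rescue. For GAS5 the log2 difference between the rescues was −0.37 (SE 0.23, limma adjusted p = 0.362) over 12 libraries. It was −0.37 (SE 0.07, limma adjusted p = 0.00269) over the 11 without MYB_KnockDown replicate 1. That library is in neither group, so leaving it out changes only the estimate of spread.

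None of the 10 genes passed in this comparison over 12 libraries by limma, and none had an unadjusted p under 0.05, where 12.1% of all tested genes passed. Over 11 libraries GAS5 was the 1 that passed, against 31.4% of all tested genes. At an unadjusted p under 0.05 by limma there were 5 of the 10. The shares of all tested genes given here are at the adjusted threshold, and none is given at an unadjusted p. EEF1A1 and NACA lay above in D152V_Rescue without overlap, EEF1D, TPT1, PABPC1 and GAS5 below, and the other 4 overlapped. The share of all tested genes without such overlap is not given here, so this order only describes the libraries. Relative to the ribosomal protein mean, none passed over 12 libraries, where 2.74% of tested genes did and 2 of the 10 had an unadjusted p under 0.05. Over 11 libraries GAS5 (limma adjusted p = 0.00110), EEF1D (limma adjusted p = 0.00494), TPT1 (limma adjusted p = 0.0153) and PABPC1 (limma adjusted p = 0.0409) were lower in D152V_Rescue, with 34.5% of tested genes passing. EEF1A2, the tissue-restricted paralog of EEF1A1, did differ. It had 2.13, 1.78 and 1.89 FPKM in D152V_Rescue, 6.81, 8.99 and 7.08 FPKM in MYB-WT_Rescue, 7.41, 5.83 and 9.34 FPKM in MYB_KnockDown and 7.28, 6.12 and 11.4 FPKM in siRNA_Control. All 3 D152V_Rescue libraries lay below the other 9. The log2 difference of D152V_Rescue was −1.55 from MYB-WT_Rescue (limma adjusted p = 0.000621), −1.52 from MYB_KnockDown (limma adjusted p = 0.00108) and −1.62 from siRNA_Control (limma adjusted p = 0.000738), and no call was lost without any 1 library. At these levels EEF1A2 is far below EEF1A1 per length of transcript.

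Set against siRNA_Control, neither rescue gave a call among the 10 genes over 12 libraries by limma, with none at an unadjusted p under 0.05. All tested genes passed at 9.55% in D152V_Rescue and 9.62% in MYB-WT_Rescue. All 10 genes had differences below 0 in D152V_Rescue, with a median of −0.21 against −0.04 for all tested genes. Over 11 libraries 4 were lower in D152V_Rescue, where 27.7% of tested genes passed: GAS5 (−0.32, limma adjusted p = 0.00728), TPT1 (−0.26, limma adjusted p = 0.0374), EEF1G (−0.22, limma adjusted p = 0.0321) and EEF1D (−0.20, limma adjusted p = 0.0425). In MYB-WT_Rescue 4 were lower too, where 29.7% passed: NACA (−0.34, limma adjusted p = 0.00589), EEF1A1 (−0.33, limma adjusted p = 0.0176), EEF1G (−0.28, limma adjusted p = 0.0105) and BTF3 (−0.25, limma adjusted p = 0.0284). Ribosomal protein genes were lower for 32 of 79 in D152V_Rescue and 55 of 79 in MYB-WT_Rescue over those 11 libraries, and for 1 and 5 of 79 over 12. Relative to the ribosomal protein mean, none of the 10 passed over 12 libraries in D152V_Rescue, where 1.84% of tested genes did and none had an unadjusted p under 0.05 by limma. In MYB-WT_Rescue none passed either, where 2.4% did. There 3 of the 10 had an unadjusted p under 0.05 by limma, a threshold at which no share of all tested genes is given. Over 11 libraries 5 were higher in MYB-WT_Rescue, EEF1D, EEF2, GAS5, PABPC1 and TPT1, where 54.8% of tested genes passed, and none passed by limma in D152V_Rescue, where 36.7% did.

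Related genes were read in the same fits. Of 22 further TOP mRNAs, 2 rose and 3 fell in MYB_KnockDown against siRNA_Control over 12 libraries, where 11.3% of all tested genes passed, with a median of 0.09. Over 11 libraries 5 rose and 7 fell, where 20.1% passed, with a median of −0.12. COX7C, a respiratory chain subunit, had 750.4, 533 and 506 FPKM in MYB_KnockDown and 295, 284 and 334 FPKM in siRNA_Control (0.95, limma adjusted p = 0.00895), a call lost without siRNA_Control replicate 1 or 2. PABPC4, a paralog of PABPC1, had 136, 232 and 227 FPKM in MYB_KnockDown and 329, 358 and 309 FPKM in siRNA_Control (−0.78, limma adjusted p = 0.0450), a call lost in 7 of the 12 fits without 1 library (limma adjusted p from 0.0611 to 0.145). PABPC4 was below the controls in all 3 MYB_KnockDown libraries, including replicate 1, where PABPC1 was above them. It was higher in MYB-WT_Rescue than in MYB_KnockDown by 1.16 (441 ± 106 FPKM against 198 ± 54.0 FPKM, limma adjusted p = 0.00264).

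Of 18 regulators of TOP mRNAs, none rose and 2 fell in MYB_KnockDown against siRNA_Control, close to the 11.3% of all tested genes, with a median of −0.18. Over 11 libraries 7 fell and none rose, against 20.1%, with a median of −0.19. LARP1, which binds the cap and the adjoining tract, had 33.7, 81.5 and 78.0 FPKM in MYB_KnockDown and 116, 128 and 105 FPKM in siRNA_Control (−0.94, limma adjusted p = 0.0486, and −0.53, limma adjusted p = 0.0112, over 11 libraries). The call was lost in 9 of the 12 fits without 1 library (limma adjusted p from 0.0647 to 0.151). LARP1 was higher in MYB-WT_Rescue than in MYB_KnockDown by 0.94 (117 ± 14.5 FPKM against 64.4 ± 26.6 FPKM, limma adjusted p = 0.0204) and by 0.54 over 11 libraries, the 12-library call being lost without MYB-WT_Rescue replicate 1 or 2 (limma adjusted p from 0.0571 to 0.0731). EIF4EBP2, a translation repressor controlled by mTORC1, had 39.0, 45.8 and 50.3 FPKM in MYB_KnockDown and 66.6, 67.0 and 65.7 FPKM in siRNA_Control (−0.56, limma adjusted p = 0.0148), lost without siRNA_Control replicate 1 or 2 (limma adjusted p from 0.0680 to 0.0705).

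Among 32 other translation factors 1 rose and 3 fell in the same comparison, close to the 11.3% of all tested genes, with a median of 0.02. Their medians by library were 0.34, −0.18 and −0.12 in MYB_KnockDown replicates 1, 2 and 3, and over 11 libraries 2 rose and 7 fell, against 20.1%, with a median of −0.13. EIF6, a ribosome anti-association factor, averaged 123 ± 14.1 FPKM in MYB_KnockDown and 73.4 ± 3.86 FPKM in siRNA_Control (0.73, limma adjusted p = 0.00850), lost only without siRNA_Control replicate 1 (limma adjusted p = 0.0534) among the fits without 1 library. EIF3A and EIF4G1, large subunits of initiation complexes, had differences of −0.81 (limma adjusted p = 0.0256) and −0.52 (limma adjusted p = 0.0400). The call of EIF3A was lost without any 1 of the control libraries (limma adjusted p from 0.0641 to 0.104), and that of EIF4G1 in 10 of the 12 fits without 1 library (limma adjusted p from 0.0533 to 0.143).

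GAS5 was set beside 16 other snoRNA host transcripts, of which 3 rose and none fell in MYB_KnockDown against siRNA_Control, where 11.3% of all tested genes passed, with a median of 0.44. That median differed by library, at 1.137, 0.235 and 0.013 in MYB_KnockDown replicates 1, 2 and 3, and over 11 libraries it was 0.10, with 4 that rose and none that fell, against 20.1%. SNHG8 had 378, 184 and 209 FPKM in MYB_KnockDown and 112, 109 and 146 FPKM in siRNA_Control (1.00, limma adjusted p = 0.0246), without overlap, and the call was lost without siRNA_Control replicate 1 or 2 (limma adjusted p = 0.0990 and 0.0993). SNHG6 had 382, 157 and 159 FPKM in MYB_KnockDown and 90.7, 94.2 and 106 FPKM in siRNA_Control (1.12, limma adjusted p = 0.0299, and 0.70 over 11 libraries), a call lost without any 1 of the control libraries (limma adjusted p from 0.0685 to 0.112). Against MYB_KnockDown, 9 of the 16 were lower in D152V_Rescue and 7 in MYB-WT_Rescue, with none higher. Of all tested genes, 25.1% and 37.6% passed there in either direction. Over 11 libraries 12 and 7 were lower, against 32.4% and 45.2%. Of 15 NMD factors, none rose and 2 fell in MYB_KnockDown against siRNA_Control, close to the 11.3% of all tested genes, and over 11 libraries 1 rose and 4 fell, against 20.1%. Of 22 paralogs and partners of the 10 genes, 19 were tested and none passed by limma in MYB_KnockDown against siRNA_Control. At an unadjusted p under 0.05 by limma there were 2, BTF3L4 and EEF2K, and no share of all tested genes is given at that threshold.

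The 10 genes varied together to different degrees. The correlation of each gene's log2(FPKM + 1) with the mean of the standardised 10 genes, in which it is itself included, was 0.99 for EEF1B2 and TPT1 over 12 libraries and −0.43 for EEF2, with PABPC1 at 0.63. Over the 11 libraries without MYB_KnockDown replicate 1 it was 0.95 for EEF1B2, −0.01 for EEF2 and −0.29 for PABPC1. Among 9107 genes with a mean of at least 5 FPKM, those closest to that mean over 12 libraries were RANBP1 (0.995), RNASEH2A (0.992), DRG1 (0.990), SSBP1 (0.987) and ADPRS (0.987). Over 11 libraries they were PISD (0.954), RPL22 (0.950), UTP18 (0.948), EMC4 (0.947) and COTL1 (0.945), and none was in both lists. These are descriptions over libraries that share their group structure and, in the larger set, the 1 library that stands apart.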

How the data were processed

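The authors deposited FPKM values in 1 table with a column for each of 12 libraries. Per the labels' protocols, poly(A) RNA libraries were made with a stranded TruSeq kit, and per the series' design text they were read as 125-bp pairs. Per the submitters' processing notes, reads were handled on the GRCh38 build by Cufflinks 2.2.1, TopHat2 2.0.13, Trimmomatic 0.33 and bcl2fastq 2.17.1.14. The annotation used, and whether quantification used strand, were not given in the sources used here. Of 60658 features, 56950 could be paired with a symbol and 31954 were at 0 in every library. FPKM ratios between libraries at values under 0.1 were checked for whole reads: a median of 4.79% agreed to within 2% with the median ratio of their library pair, so reads could not be recovered, depth is unknown and count models were not applied.

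Groups and replicate numbers came from the sample titles. Genes with FPKM of at least 1 in at least 3 libraries (13393) were fitted as log2(FPKM + 1) using limma 3.58.1 (R 4.3.3) and a variance trend, 4 group means and 8 residual degrees of freedom, in 6 comparisons, with Benjamini-Hochberg adjustment and a threshold of 0.05. Fold changes are on that scale, which understates those of low genes. Shares of all tested genes that passed count both directions unless a direction is named, also where they stand beside a count in a single direction. A second fit subtracted each library's mean over 79 ribosomal protein genes. The first fit was tested on simulated data in the comparison of MYB_KnockDown with siRNA_Control, and the second was not. Figures and tables used Python 3.11.15.

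The members and gene lists were chosen with earlier results of these data known. All members are named. Of each compared list the text names at most 4 genes per comparison, those called with the lowest p, and the 5 genes most like the members' mean. EEF1A2 belongs to the list of paralogs. Library weights, removal of each library's length trend, and that removal with the replicate block were added after seeing the data. Other alternatives were quantile normalization, a pseudocount of 0.1, the replicate block, median-ratio scaling, omission of the filter, a filter at a mean FPKM of 5, only the 6 compared libraries and leaving out each library.

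Same-numbered D152V_Rescue and MYB-WT_Rescue libraries deviated together from their group means, with correlations of 0.153 to 0.233 for all 3 numbers, so these are treated as paired in sensitivity checks. In the other pairs of groups at least 1 number did not pass 0.1. All tests were two-sided.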

Additional observations from a re-analysis of the deposited data

How the results depend on the processing

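Among single-gene differences, 1178 of 1320 kept direction and side of the threshold, 41 fell short of it, 65 newly passed and 36 changed sign, over 22 alternatives. Relative to the ribosomal protein mean it was 1174, 49, 56 and 41. The cause of each change was not tested. FPKM carries no depth, so the counting error of low genes is unknown.

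The counts in this section stand without the share of all tested genes under the same setting. They show how the calls moved and do not set the members against other genes. That share moved too, with 25.1% over 12 libraries and 32.4% over the 11 without MYB_KnockDown replicate 1 in D152V_Rescue minus MYB_KnockDown. For D152V_Rescue minus MYB_KnockDown, members called numbered 1 with no filter, 5 with quantile normalization, 0 with only 6 libraries and 6 with library weights. For MYB-WT_Rescue minus MYB_KnockDown they numbered 1 with no filter and 1 with only 6 libraries. For MYB_KnockDown minus siRNA_Control they numbered 3 with quantile normalization, 0 with only 6 libraries and 4 with library weights. For D152V_Rescue minus MYB-WT_Rescue they numbered 1 with quantile normalization, 1 with only 6 libraries, 2 with library weights, 1 with the length trend removed and 1 with that and the block. Against siRNA_Control they numbered 1 with only 6 libraries and 2 with library weights in D152V_Rescue, and 4 and 3 in MYB-WT_Rescue. Ribosomal protein genes called numbered 4 with no filter, 0 with only 6 libraries and 51 with library weights in MYB_KnockDown minus siRNA_Control. They numbered 32 with quantile normalization and 4 with only 6 libraries in D152V_Rescue minus MYB_KnockDown, and 23 with only 6 libraries in MYB-WT_Rescue minus MYB_KnockDown. Relative calls numbered 0 with only 6 libraries in MYB_KnockDown minus siRNA_Control and in D152V_Rescue minus MYB_KnockDown. Relative calls in D152V_Rescue minus MYB-WT_Rescue numbered 1 with quantile normalization, 3 with only 6 libraries and 6 with library weights. In MYB-WT_Rescue minus siRNA_Control they numbered 5 under each of the last 2 settings, and in D152V_Rescue minus siRNA_Control 1 with library weights.

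Leaving out 1 library gave 1 to 8 members called in D152V_Rescue minus MYB_KnockDown, 2 to 7 in MYB-WT_Rescue minus MYB_KnockDown, 0 to 4 in MYB_KnockDown minus siRNA_Control, 0 to 1 in D152V_Rescue minus MYB-WT_Rescue, and 0 to 4 in each rescue against siRNA_Control. Ribosomal protein genes called ranged over 31 to 67, 50 to 67 and 1 to 49 in the first 3 of these. Relative calls ranged over 6 to 9, 7 to 9, 0 to 8 and 0 to 4 in the first 4, then 0 to 5 in MYB-WT_Rescue and 0 to 0 in D152V_Rescue against siRNA_Control.

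With replicate number as a block, members called were 1 in MYB_KnockDown minus siRNA_Control, 4 in MYB-WT_Rescue minus MYB_KnockDown and 2 in D152V_Rescue minus MYB_KnockDown, and in the paired D152V_Rescue and MYB-WT_Rescue comparison no call changed.

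Quantile normalization changed the sign of log2 differences. EEF1B2 took −0.033, EEF1G −0.36, TPT1 −0.0066, BTF3 −0.23 and GAS5 −0.11 in MYB_KnockDown minus siRNA_Control. EEF1B2 stood at 0.028, EEF1G 0.29, TPT1 0.16, BTF3 0.20 and GAS5 0.23 in MYB-WT_Rescue minus MYB_KnockDown. EEF1G lay at 0.33 and BTF3 0.33 in D152V_Rescue minus MYB_KnockDown. EEF1D came to 0.020 and TPT1 0.16 in MYB-WT_Rescue minus siRNA_Control. EEF2 took 0.065 and BTF3 0.099 in D152V_Rescue minus siRNA_Control. Relative to the ribosomal protein mean, EEF1D stood at −0.12 in MYB-WT_Rescue minus MYB_KnockDown. EEF1A1 lay at −0.067 in D152V_Rescue minus MYB-WT_Rescue on that scale. EEF1A1 came to −0.060 and NACA −0.00041 in MYB-WT_Rescue minus siRNA_Control on that scale. EEF1A1 took −0.13, EEF1D −0.0064 and TPT1 0.057 in D152V_Rescue minus siRNA_Control on that scale. Removal of the length trend, with or without the replicate block, changed others. It used the length of each gene's canonical transcript, 4548 bases for TPT1 and 6387 bases for NACA. Whether the expressed transcripts had these lengths was not tested. EEF1G stood at −0.082 in MYB_KnockDown minus siRNA_Control. GAS5 lay at 0.16 in MYB-WT_Rescue minus MYB_KnockDown. EEF1D came to 0.036 in MYB-WT_Rescue minus siRNA_Control. On the scale relative to ribosomal protein genes, TPT1 took 0.14 in MYB_KnockDown minus siRNA_Control. EEF1A1 stood at −0.012 and EEF1D −0.012 in MYB-WT_Rescue minus MYB_KnockDown on that scale. TPT1 lay at −0.17 in D152V_Rescue minus MYB_KnockDown on that scale. EEF1A1 came to −0.074 and NACA −0.13 in MYB-WT_Rescue minus siRNA_Control on that scale. Library weights changed a few. BTF3 took −0.072 in MYB_KnockDown minus siRNA_Control. GAS5 stood at 0.050 in MYB-WT_Rescue minus MYB_KnockDown. On the scale relative to ribosomal protein genes, EEF1D lay at 0.0054 in D152V_Rescue minus MYB_KnockDown. TPT1 came to 0.0011 and PABPC1 −0.014 in D152V_Rescue minus siRNA_Control on that scale. Over the fits without 1 library, some had both signs. PABPC1 ranged over −0.94 to 0.11 and BTF3 −0.10 to 0.56 in MYB_KnockDown minus siRNA_Control. PABPC1 ranged over −0.071 to 0.97 and GAS5 −0.48 to 0.049 in MYB-WT_Rescue minus MYB_KnockDown. PABPC1 ranged over −0.34 to 0.71 in D152V_Rescue minus MYB_KnockDown. EEF1D ranged over −0.042 to 0.0048, EEF2 −0.057 to 0.13 and PABPC1 −0.043 to 0.12 in MYB-WT_Rescue minus siRNA_Control. On the scale relative to ribosomal protein genes, NACA ranged over −0.33 to 0.0086 in MYB-WT_Rescue minus MYB_KnockDown. EEF1D ranged over −0.19 to 0.037 and NACA −0.29 to 0.048 in D152V_Rescue minus MYB_KnockDown on that scale. NACA ranged over −0.0016 to 0.070 and BTF3 −0.023 to 0.080 in D152V_Rescue minus MYB-WT_Rescue on that scale. EEF1A1 ranged over −0.021 to 0.064 and NACA −0.011 to 0.061 in MYB-WT_Rescue minus siRNA_Control on that scale. EEF1B2 ranged over −0.039 to 0.045, TPT1 −0.061 to 0.033 and PABPC1 −0.060 to 0.13 in D152V_Rescue minus siRNA_Control on that scale.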
